A study of Mus musculus with 117 samples.

Results

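A set of 10 genes of the cornified envelope and the hair follicle was followed across 117 mouse samples: Ivl, Lor, Sprr1a, Sprr1b, Sprr2h, Sprr3, Krtdap, Tchh, Prr9 and Csta1. They were taken by name, as 10 of the 17097 genes measured, each read by its brightest probe set that is annotated to that gene alone. The set was chosen by a list of names drawn up with results of these arrays in view, among them the high signals in skin tumours, so levels in skin tumours against other tumours are given as a description and carry no test. The comparisons of tumours with normal cells of the same organ, and of sorted cell fractions with each other, do not use the skin tumours as a group under comparison. In the fit of tumours against normal cells, the skin tumours still enter the filter on dim genes and the shared estimate of spread. Neither kind of comparison is free of the choice, because the names and lists were drawn up with earlier results of these data known. Counts of the 10 against all genes are therefore a description, and the p-values carry the same limit.

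All animals were of the strain C57BL/6. The 66 tumours were 6 skin squamous cell carcinomas, 10 prostatic, 9 uterine and 11 gastric adenocarcinomas, 14 bronchial papillary adenomas, 13 hepatocellular carcinomas and 3 B-cell lymphomas, each frozen as a piece of tissue. The 51 normal samples were cells from 6 tissues, dissociated and divided with magnetic beads against Prom1 (prominin-1, CD133), a surface glycoprotein used to enrich stem and progenitor cells. Prom1-positive and Prom1-negative fractions numbered 3 and 5 for prostate, 4 and 3 for uterus, 3 and 4 for stomach, 3 and 7 for lung, 4 and 7 for liver, and 3 and 5 for intestine. The series concerns mice with conditional mutations in Prom1-expressing cells, but the labels used here give no genotype or age for a sample, so the alleles of a tumour or of its normal counterpart are not known here. Tumours were frozen whole and normal cells were dissociated and sorted, so tumour state and handling cannot be told apart in any comparison of them. Whether replicates came from different mice is not in the labels, and the p-values describe variation among samples that may be partly technical. No normal skin was among the samples analysed here.

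Levels are log2 signals on a scale where the array medians lay between 3.63 and 4.01, so that a value under about 4 belongs to the dim part of an array. The upper quartile of the arrays ranged from 5.05 to 6.53, and 6 arrays lay under 6: 1 lung Prom1-positive, 2 liver Prom1-positive, 2 stomach Prom1-positive samples and 1 stomach Prom1-negative sample. Signals of different probe sets are not on a common scale, so levels are compared between samples and not between genes. Each sample is bulk RNA, and fewer cells of a type and less RNA per cell cannot be told apart.

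The cornified envelope is a protein shell that keratinocytes build beneath the plasma membrane as they leave the basal layer of a stratified epithelium. Transglutaminases cross-link involucrin (Ivl), loricrin (Lor) and the small proline-rich proteins (Sprr genes) into it, and most of these genes lie side by side in the epidermal differentiation complex. Trichohyalin (Tchh), also encoded there, hardens the inner root sheath and medulla of the hair. Simple glandular epithelia such as those of prostate, lung or liver do not normally cornify, whereas the mouse forestomach is lined by a cornifying stratified epithelium.

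Of the 10 genes, 8 lie on chromosome 3 within an interval that holds 50 protein-coding genes from Lor to Tchh, of which 33 were measured. Krtdap, which encodes a secreted protein of differentiating keratinocytes, lies on chromosome 7, and Csta1, a cysteine protease inhibitor of the stefin A family, on chromosome 16. The 250 bases before the transcription start of each gene were read from RefSeq on GRCm38.p6. In these windows, 4 motifs were searched on both strands, and their matches did not overlap each other. The AP-1 motif TGANTCA was found before 7 of the 10 genes and in 6.75% of 32851 promoters, and TATAAA before 8 of the 10 and in 12.37% of promoters. The KLF motif CCACCC was found before 5 of the 10 genes and in 28.08% of promoters, and the TCF/LEF motif CTTTGAT before Krtdap alone of the 10 and in 3.21% of promoters. A match describes the letters of the window and is not evidence of binding. The promoters of Sprr1a, Prr9, Krtdap and Tchh are shown because Sprr1a and Krtdap had their highest means in skin carcinomas and Prr9 and Tchh in prostatic adenocarcinomas, as described below. Matches are in capitals, and the sequences run 5′ to 3′ along the gene's strand.
Sprr1a, chr3:92485882-92486131, minus strand: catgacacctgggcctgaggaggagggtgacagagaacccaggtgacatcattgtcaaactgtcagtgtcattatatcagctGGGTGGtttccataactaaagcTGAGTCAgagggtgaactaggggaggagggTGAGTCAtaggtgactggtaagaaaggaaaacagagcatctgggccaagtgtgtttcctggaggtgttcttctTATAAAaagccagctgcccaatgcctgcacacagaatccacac
Prr9, chr3:92123948-92124197, minus strand: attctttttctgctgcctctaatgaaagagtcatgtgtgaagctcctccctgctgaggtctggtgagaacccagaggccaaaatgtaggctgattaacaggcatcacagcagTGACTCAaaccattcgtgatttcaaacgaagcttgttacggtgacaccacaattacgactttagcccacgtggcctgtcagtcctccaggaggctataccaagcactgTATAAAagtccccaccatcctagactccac
Krtdap, chr7:30787655-30787904, plus strand: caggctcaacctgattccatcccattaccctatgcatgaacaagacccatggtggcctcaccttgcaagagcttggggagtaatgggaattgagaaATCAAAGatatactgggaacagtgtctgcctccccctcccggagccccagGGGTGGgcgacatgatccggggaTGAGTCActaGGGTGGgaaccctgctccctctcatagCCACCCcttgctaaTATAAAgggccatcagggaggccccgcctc
Tchh, chr3:93442080-93442329, plus strand: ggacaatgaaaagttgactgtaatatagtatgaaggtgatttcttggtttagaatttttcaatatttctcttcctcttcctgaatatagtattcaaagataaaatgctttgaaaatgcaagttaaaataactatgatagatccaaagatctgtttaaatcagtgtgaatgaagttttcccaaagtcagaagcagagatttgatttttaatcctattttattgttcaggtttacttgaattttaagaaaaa
The Sprr1a window holds 2 AP-1 matches, the nearer one 116 bases before the start, a KLF match and a TATAAA at 43 bases. The Prr9 window holds 1 AP-1 match and a TATAAA at 30 bases. The Krtdap window holds an AP-1 match at 81 bases, a TCF/LEF match at 154 bases and 3 KLF matches. None of the 4 motifs was found in the windows of Tchh and Csta1.

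The 10 genes did not follow a common pattern over the 19 groups. Skin squamous cell carcinomas had the highest mean of 7 of them, Lor, Sprr1a, Sprr1b, Sprr2h, Sprr3, Krtdap and Csta1, and prostatic adenocarcinomas the highest mean of Ivl, Tchh and Prr9. Sprr1a, which encodes a bridging protein of the envelope that other epithelia also make, exceeded the median of its own array in 92 of 117 arrays. Ivl, the early scaffold protein of the envelope, did so in 52 arrays, and the remaining genes did so in 15 (Sprr3) to 31 (Sprr2h) arrays. In the B-cell lymphomas, which hold no such epithelium, none of the 10 genes exceeded the array median in any sample.

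**Figure D1:**
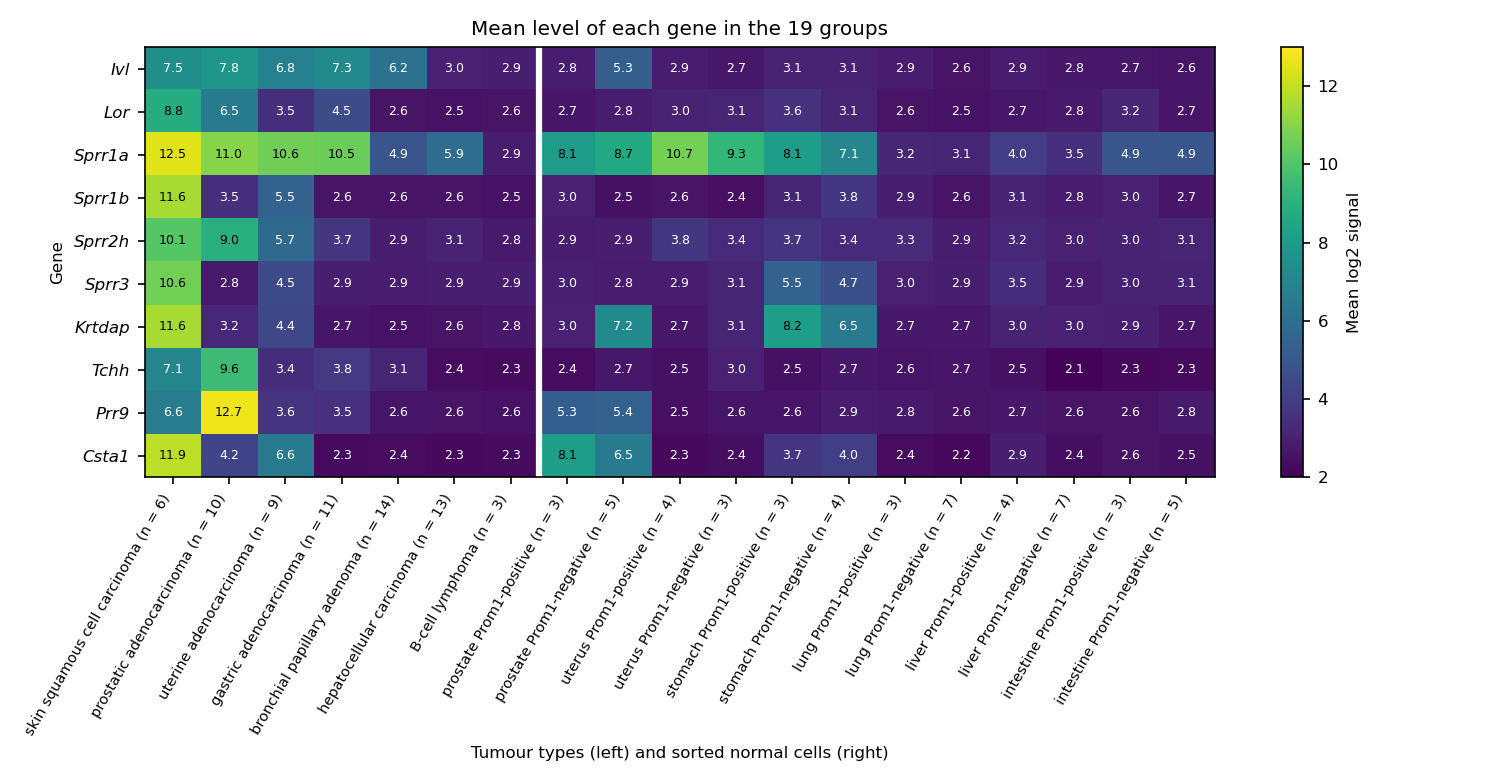
Mean log2 signal of each gene (rows) in 7 tumour types (left of the white line) and 12 groups of sorted normal cells (right), with the mean printed in each cell and the number of samples beside each group name. Skin squamous cell carcinomas are bright in most rows, Prr9 and Tchh peak in prostatic adenocarcinomas, and Krtdap is bright in both stomach fractions and in Prom1-negative prostate cells.

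Sprr1a averaged 12.48 ± 0.44 in skin carcinomas (SD, n = 6) and 10.98 ± 0.47 in prostatic adenocarcinomas (SD, n = 10), and these ranges did not overlap. The next groups, uterus Prom1-positive cells at 10.68 ± 0.91 (SD, n = 4), uterine adenocarcinomas at 10.62 ± 1.87 (SD, n = 9) and gastric adenocarcinomas at 10.55 ± 1.90 (SD, n = 11), overlapped each other. Single uterine and gastric adenocarcinomas, at up to 12.66 and 13.05, lay within the skin range of 11.99 to 13.09. Ivl averaged 7.83 ± 0.64 in prostatic adenocarcinomas (SD, n = 10), 7.46 ± 1.44 in skin carcinomas (SD, n = 6), 7.28 ± 2.60 in gastric adenocarcinomas (SD, n = 11) and 6.83 ± 2.06 in uterine adenocarcinomas (SD, n = 9). These 4 tumour types overlapped each other in Ivl, so that involucrin did not set the skin tumours apart. Lor, the main protein of the epidermal envelope, averaged 8.80 ± 4.82 in skin carcinomas (SD, n = 6), 6.48 ± 1.27 in prostatic adenocarcinomas (SD, n = 10) and 4.53 ± 1.29 in gastric adenocarcinomas (SD, n = 11), again with overlapping neighbours.

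Sprr3, a small proline-rich protein of internal stratified epithelia such as the oesophagus and forestomach, averaged 10.64 ± 1.40 in skin carcinomas (SD, n = 6). It was next highest in stomach Prom1-positive cells, at 5.45 ± 1.78 (SD, n = 3), with no overlap. Csta1 averaged 11.90 ± 0.27 in skin carcinomas (SD, n = 6) and then 8.14 ± 1.31 in prostate Prom1-positive cells (SD, n = 3), also with no overlap. Prr9, a proline-rich gene of the epidermal differentiation complex, averaged 12.74 ± 0.40 in prostatic adenocarcinomas (SD, n = 10) and 6.63 ± 3.12 in skin carcinomas (SD, n = 6), and these ranges were apart. Over tumours only, 2 of the 10 genes, Sprr3 and Csta1, were higher in every skin carcinoma than in each of the 60 other tumours. Of all 13456 genes so ranked, 0.669% had that property. The lowest skin value of Sprr3 was 7.93 against 6.49 in the highest other tumour, and that of Csta1 was 11.62 against 9.93. In prostatic adenocarcinomas the property held for 1 of the 10, Prr9, and for 0.26% of all genes.

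The skin carcinomas were checked against their label by 8 markers of stratified squamous epithelium that are not among the 10 genes, including Krt5 and Krt14 of the basal layer and Krt1 and Krt10 of the suprabasal layers. These 8 markers share Krt5, Krt14 and Trp63 with the basal list used below, and Krt6a and Krt13 with the list of suprabasal and wound keratins. Counts of these lists are therefore not separate results. All 8 exceeded the array median in every skin carcinoma, and their mean ranged from 10.53 to 12.50. Within this type the 10 genes divided into those at a steady level and those that varied widely. Csta1 had log2 signals of 11.82, 11.80, 11.62, 11.93, 12.40 and 11.81 in tumours 1 to 6, a range narrower than that of any other of the 10 genes in these tumours. Sprr1a was also steady, between 11.99 and 13.09.

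Lor had log2 signals of 2.73, 12.31, 2.73, 12.40, 9.82 and 12.80 in skin carcinomas 1 to 6. It was near the bottom of the scale in tumours 1 and 3 and among the bright signals in the other 4. Filaggrin (Flg), the keratin-aggregating protein of the granular layer, averaged 9.04 ± 3.56 over the same tumours (SD, n = 6), against 2.34 in the other tumours. Sprr2h had 11.43, 11.38, 4.37, 11.35, 11.34 and 10.80, and Krtdap had 11.49, 13.52, 6.08, 13.28, 12.02 and 13.05. For both genes, tumour 3 lay far under the other 5. Tumour 3 was the lowest of the 6 in 8 of the 10 genes, all but Ivl and Tchh.

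Tchh had log2 signals of 5.71, 6.13, 6.49, 10.03, 5.86 and 8.13 in skin carcinomas 1 to 6. Prr9 had 3.47, 7.55, 2.77, 10.66, 6.18 and 9.16. Both genes were highest in tumour 4 and next highest in tumour 6. The mean of 26 measured hair follicle keratins and regulators was 3.93, 4.73, 3.36, 7.95, 3.62 and 5.88 in the same tumours, so that tumours 4 and 6 also led in this list. The mean of 8 markers of simple glandular epithelium, such as Krt8 and Epcam, was 9.74, 7.95, 11.64, 5.21, 10.24 and 5.10. Tumours 4 and 6 were the lowest in these glandular markers, and tumour 3, the lowest in most of the 10 genes, was the highest. The mean of 9 neutrophil markers stayed between 5.6 and 7.27. The part of glandular, hair follicle or neutrophil cells in the differences among skin carcinomas was not tested.

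**Figure D2:**
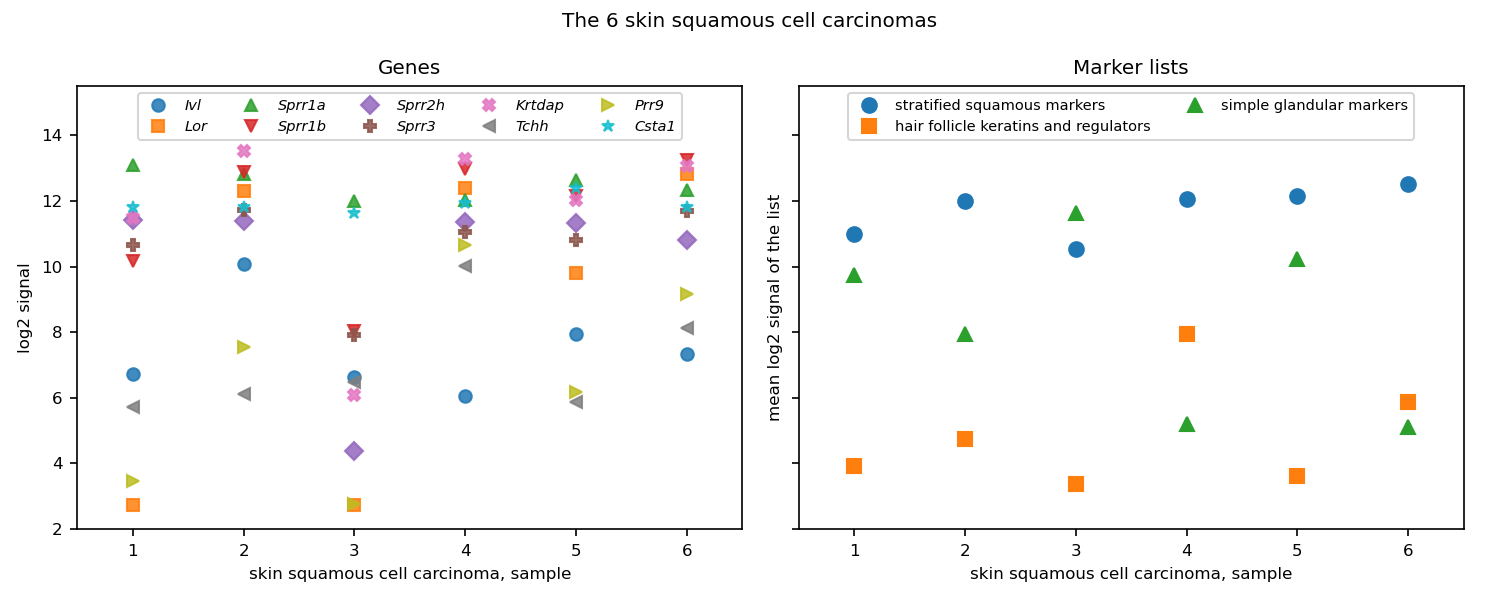
Log2 signal of the 10 genes (left, one symbol per gene) and mean log2 signal of 3 marker lists (right) in each of the 6 skin squamous cell carcinomas. Csta1 and Sprr1a stay between 11.62 and 13.09, Lor is at 2.73 in tumours 1 and 3, Tchh and Prr9 peak in tumour 4, and the glandular list runs from 5.10 in tumour 6 to 11.64 in tumour 3.

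Other genes of the cornification programme were bright in the same tumours to a degree that varied by list, as a description. The keratins Krt6b, at 13.15 ± 0.41 (SD, n = 6) against 3.6 in the other tumours, and Krt14, at 13.21 ± 0.28 (SD, n = 6) against 4.78, had the largest excess in their lists. All 11 measured genes of basal stratified epithelium and 8 of 11 suprabasal and wound keratins exceeded the array median in every skin carcinoma. The same held for 14 of 23 cornification enzymes and junction proteins, for 17 of 19 transcription factors of keratinocyte differentiation, for 3 of 4 measured stefin genes, for 7 of 26 other genes of the epidermal differentiation complex, and for 4 of 26 hair follicle genes. The share of all genes above the array median in every skin carcinoma was not computed, so these counts have no background beside them. Grhl3, a transcription factor needed for the epidermal barrier, averaged 8.57 ± 0.72 (SD, n = 6) against 3.40 in the other tumours.

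Prostatic adenocarcinomas, compared with normal prostate cells, showed the largest shift of the 10 genes. Prr9, Tchh, Sprr2h, Ivl, Lor and Sprr1a were higher in the tumours, Csta1 and Krtdap were lower, and Sprr1b and Sprr3 did not pass the test. In limma with Benjamini-Hochberg adjustment over 14663 genes, 8 of the 10 were called, 6 higher and 2 lower, against 36.7% of all genes, 20.9% higher and 15.8% lower. The median difference of the 10 was 3.16 on the log2 scale, against 0.01 over all genes tested. All 10 genes had passed the filter on dim signals.

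Prr9 had a lowest, median and highest log2 signal of 11.67, 12.81 and 13.07 in the 10 tumours. It had 4.02, 5.29 and 6.58 in Prom1-positive and 9.66, 5.09, 3.43, 3.74 and 5.15 in Prom1-negative prostate cells. Every tumour was above every normal sample, and the nearest was Prom1-negative sample 1. Prr9 was higher in tumours by 7.39 log2 units (SE 0.52, limma adjusted p = 3.43e-23), and by 7.92 without that Prom1-negative sample.

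Tchh, the hair sheath protein, had a lowest, median and highest signal of 7.15, 9.70 and 10.67 in the tumours. In the normal cells it had 2.52, 2.21 and 2.33 in Prom1-positive samples and 2.52, 2.78, 2.90, 2.40 and 2.87 in Prom1-negative samples. All normal samples lay in the dim part of their arrays and all tumours lay far above them, with a difference of 7.03 (SE 0.32, limma adjusted p = 6.22e-37). Tchh was brighter on average in these tumours than in the skin carcinomas, at 9.56 ± 1.04 (SD, n = 10) against 7.06 ± 1.70 (SD, n = 6), although the ranges overlapped.

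Sprr2h had signals of 6.52, 8.89 and 10.55 as lowest, median and highest of the tumours, 2.92, 2.79 and 2.88 in Prom1-positive cells, and 3.42, 2.82, 2.92, 2.72 and 2.79 in Prom1-negative cells. No tumour overlapped the normal cells, and the difference was 6.06 (SE 0.49, limma adjusted p = 1.11e-19). The probe set of Sprr2h is of a kind that can match transcripts of related genes, so its signal may hold other Sprr2 transcripts, and the same holds for that of Lor. Lor had 3.62, 6.56 and 8.34 in the tumours, 2.68, 2.65 and 2.69 in Prom1-positive cells, and 2.83, 2.96, 2.73, 3.04 and 2.60 in Prom1-negative cells. The groups did not overlap, although tumour 10 at 3.62 came close to the normal cells, and the difference was 3.72 (SE 0.63, limma adjusted p = 9.19e-07).

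Ivl had 6.75, 7.78 and 8.81 as lowest, median and highest of the tumours, 3.37, 2.73 and 2.44 in Prom1-positive cells, and 8.22, 5.16, 4.79, 4.78 and 3.78 in Prom1-negative cells. Prom1-negative sample 1 reached into the range of the tumours and the other 7 normal samples lay below it. The difference was 3.73 (SE 0.63, limma adjusted p = 8.37e-07), and 4.09 without that sample. A separate Ivl probe set was dimmer, at 5.81 ± 0.54 in the tumours (SD, n = 10), 3.71 ± 0.09 in Prom1-positive cells (SD, n = 3) and 4.36 ± 1.58 in Prom1-negative cells (SD, n = 5). Sprr1a had 10.38, 10.85 and 11.86 in the tumours, 8.18, 7.23 and 8.87 in Prom1-positive cells, and 11.13, 9.14, 7.05, 8.15 and 7.96 in Prom1-negative cells. The same Prom1-negative sample was again the only overlap, and Sprr1a differed by 2.59 (SE 0.59, limma adjusted p = 0.000229).

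Csta1 ran the other way. Its lowest, median and highest signals in the tumours were 2.39, 3.24 and 8.94, while it had 8.13, 9.46 and 6.84 in Prom1-positive cells and 4.68, 6.36, 7.41, 7.35 and 6.73 in Prom1-negative cells. Tumours 3, 9 and 10 overlapped the normal cells and the other 7 lay below them, and the difference was -3.09 (SE 0.50, limma adjusted p = 3.05e-07). Krtdap lay between 2.80 and 3.97 in the tumours, at 3.12, 3.02 and 2.83 in Prom1-positive cells, and at 6.96, 7.41, 6.84, 7.74 and 7.30 in Prom1-negative cells. Tumours and Prom1-positive cells overlapped, and the Prom1-negative cells stood above both. The difference of -1.90 from the mean of both fractions (SE 0.54, limma adjusted p = 0.00321) thus rested on the Prom1-negative cells. Against the Prom1-positive cells alone it was 0.22 (limma adjusted p = 0.876), and against the Prom1-negative cells alone -4.03.

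**Figure D3:**
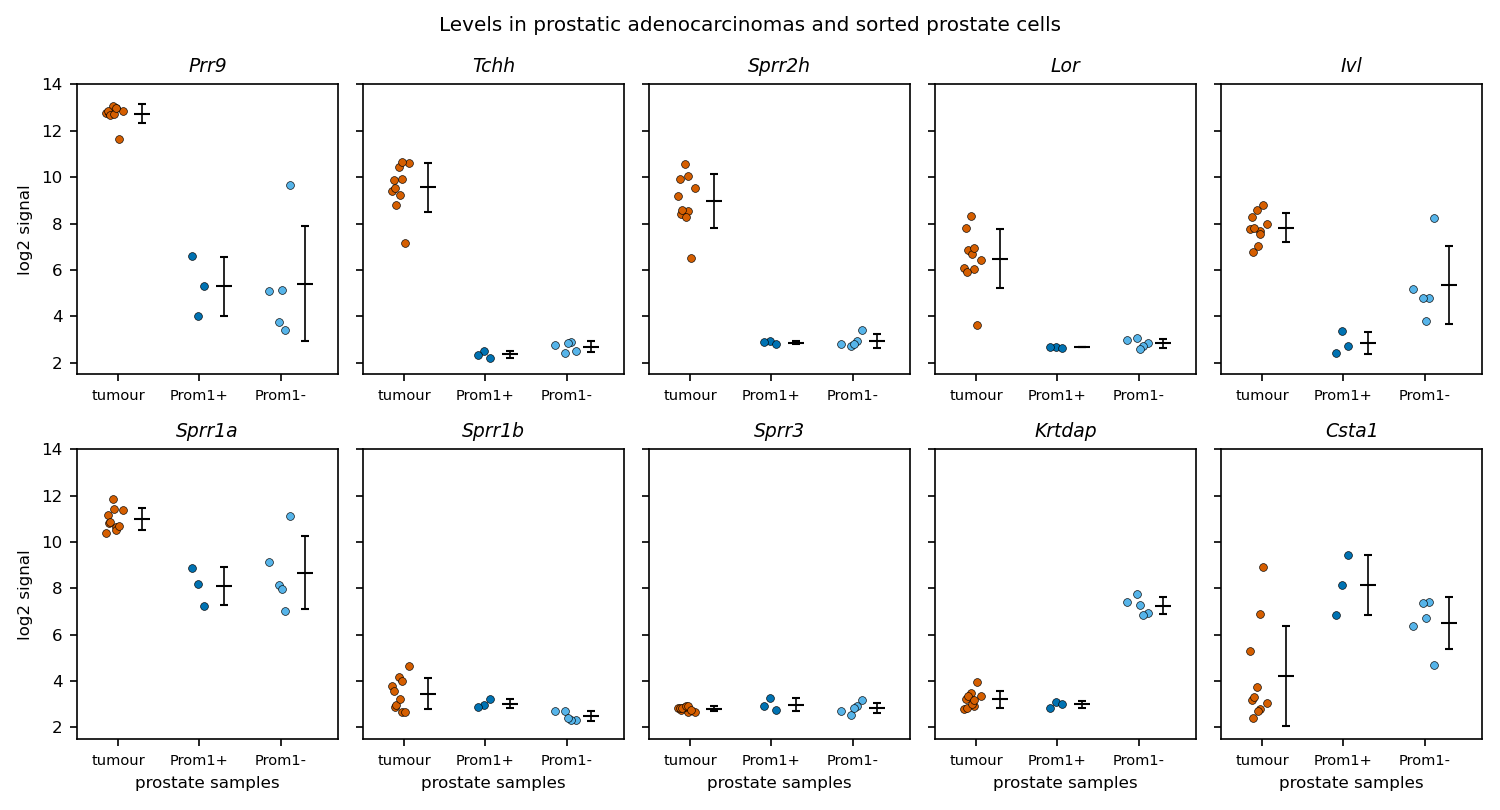
Log2 signal of each of the 10 genes in prostatic adenocarcinomas (n = 10) and in Prom1-positive (n = 3) and Prom1-negative (n = 5) prostate cells; points are samples, and the bar and whiskers beside them are the mean and SD. Prr9, Tchh, Sprr2h and Lor are higher in every tumour than in every normal sample, Sprr1b reaches 4.65 in the tumours, Sprr3 stays at or below 3.29 in all 3 groups, and Krtdap is high in Prom1-negative cells alone.

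Sprr1b and Sprr3, which were bright in skin carcinomas, were far dimmer in prostatic adenocarcinomas. Sprr1b lay between 2.65 and 4.65 in the tumours, with a difference of 0.70 (95% interval -0.13 to 1.52, limma adjusted p = 0.187). It exceeded the array median in 4 of the 10 tumours and in none of the normal samples, and was called higher with prostate fitted alone (limma adjusted p = 0.0243). Sprr3 lay between 2.65 and 2.93, with a difference of -0.10 (95% interval -0.72 to 0.52, limma adjusted p = 0.845).

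Other genes of cornification and the hair follicle were counted in the same comparison. Of 24 other genes of the epidermal differentiation complex, 10 were higher and none lower in prostatic tumours, among them Sprr2a1 by 4.77, Rptn (repetin, a filaggrin-type protein) by 4.52, Sprr2f by 3.72 and the late envelope gene Lce1a1 by 3.53. Of 23 cornification enzymes and junction proteins, 10 were higher and 2 lower, with Ly6d 5.21 and Cnfn (cornifelin) 4.42 higher, and the protease inhibitor Spink5 at -3.48. Of 23 hair follicle genes, 5 were higher and none lower: the inner root sheath keratin Krt73 by 3.09, the homeobox gene Msx2 by 2.95, Krt36 by 1.53, Lef1 by 1.0 and Dlx3 by 0.97. As a share this is close to the genes higher over all. Of 11 basal genes 4 were higher, and the basal keratins Krt5 and Krt14 and the basal regulator Trp63 differed by 0.51, 0.47 and 0.74 without passing the test. Of 11 suprabasal and wound keratins 3 were higher, and of 4 stefin genes none was called. Of 19 transcription factors 5 were higher and 6 lower, with Grhl3 at 2.98 and Fosl1, Junb and Klf4 at -3.26, -3.01 and -2.01.

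The secretory genes of the prostate were followed in the same samples. Each of the 5 prostate gland markers was lower in the tumours, with a median difference of -7.64. Their mean ranged from 3.98 to 11.25 over the tumours, against 12.94 to 13.29 in Prom1-positive and 12.82 to 12.98 in Prom1-negative cells. Tumours 9 and 10 kept the highest values, 11.25 and 9.75, and were also the highest in Csta1. The genes that rose did not follow the gland markers in 1 way over the tumours. Tumour 9 had the highest Tchh, at 10.67. Tumour 10 had the highest Ivl, at 8.81, but the lowest Lor, Sprr2h, Tchh and Prr9. The mean of the 8 simple glandular markers was 11.19 to 11.84 in the tumours, 10.19 to 10.35 in Prom1-positive and 9.39 to 10.20 in Prom1-negative cells. That of the 8 stratified squamous markers was 5.03 to 5.71, 4.38 to 5.0 and 3.98 to 5.44 in the same groups. That of the 5 fibroblast markers was 7.13 to 10.29 in the tumours, 5.69 to 7.63 in Prom1-positive and 8.66 to 9.87 in Prom1-negative cells. The part of cell composition in the shift of the 10 genes was not tested.

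**Figure D4:**
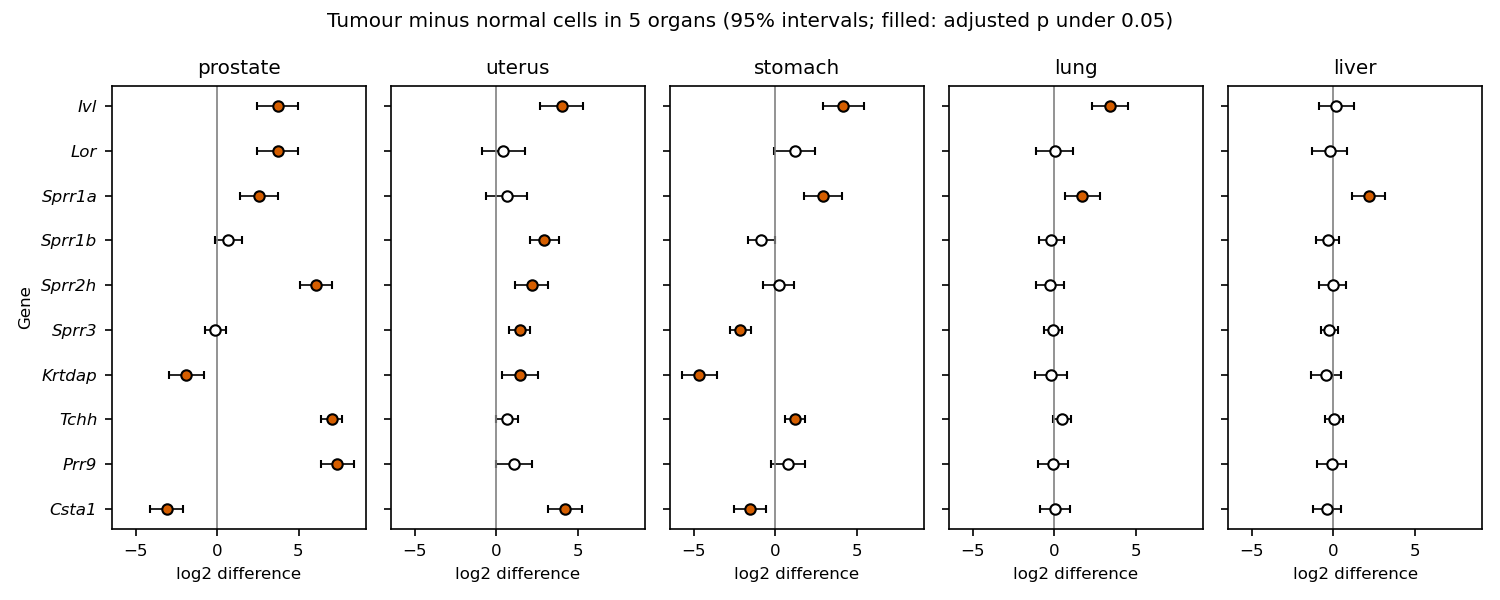
Difference in mean log2 signal, tumours minus the mean of both sorted fractions of the same organ, with 95% intervals, for the 10 genes (rows) in 5 organs (panels); filled points have a limma adjusted p under 0.05. Prr9, Tchh and Sprr2h exceed 6 in prostate, Csta1 and Ivl exceed 4 in uterus, Krtdap is at -4.66 in stomach, and few points are filled in lung and liver.

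Uterine adenocarcinomas, compared with normal uterus cells, had higher Csta1, Ivl, Sprr1b, Sprr2h, Sprr3 and Krtdap, and none of the 10 genes was lower. In limma, 6 of the 10 were called, all higher, against 28.8% of all genes in either direction and 16.4% higher. The tumours varied widely, and the same few were low in several genes. The median difference of the 10 was 1.46, against 0.05 over all genes.

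Csta1 had 7.31, 7.90, 6.94, 6.42, 7.55, 9.93, 3.6, 2.22 and 7.24 in uterine tumours 1 to 9. It had 2.38, 2.15, 2.30 and 2.24 in Prom1-positive and 2.29, 2.49 and 2.47 in Prom1-negative uterus cells. Tumour 8 fell among the normal samples and the other 8 tumours lay above them, with a difference of 4.23 (SE 0.53, limma adjusted p = 1.77e-10). Ivl had 8.19, 8.11, 8.11, 4.89, 8.01, 9.85, 3.91, 4.63 and 5.74 in the tumours. It had 2.83, 2.92, 2.75 and 2.95 in Prom1-positive and 2.68, 3.09 and 2.40 in Prom1-negative cells. All tumours exceeded all normal samples, by 4.04 on average (SE 0.66, limma adjusted p = 5.88e-07). The groups lay closer together in the separate Ivl probe set, at 5.21 ± 1.65 in the tumours (SD, n = 9). It averaged 3.16 ± 0.17 in Prom1-positive (SD, n = 4) and 3.02 ± 0.11 in Prom1-negative cells (SD, n = 3).

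Sprr1b, a close relative of Sprr1a, had 7.56, 4.24, 6.85, 3.91, 8.23, 6.82, 2.66, 2.43 and 6.52 in the tumours, 2.47, 2.76, 2.40 and 2.62 in Prom1-positive cells, and 2.49, 2.42 and 2.42 in Prom1-negative cells. Tumours 7 and 8 were within the normal range and the other 7 were above it, and Sprr1b differed by 2.96 (SE 0.44, limma adjusted p = 3.49e-08). Sprr2h ranged from 3.21 to 8.56 in the tumours with a median of 5.05. It had 5.14, 3.56, 3.08 and 3.38 in Prom1-positive and 3.73, 3.39 and 2.93 in Prom1-negative cells. Only tumours 4, 5, 6 and 9 exceeded all normal samples, and the difference was 2.18 (SE 0.51, limma adjusted p = 0.000474).

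Sprr3 ranged from 2.69 to 6.49 in the tumours with a median of 4.46, and had 2.90, 2.95, 2.95 and 2.79 in Prom1-positive and 3.11, 3.49 and 2.83 in Prom1-negative cells. The difference was 1.45 (SE 0.33, limma adjusted p = 0.000281), and the groups overlapped. Krtdap had 2.82, 4.71, 2.65, 5.61, 2.73, 7.76, 2.67, 2.74 and 7.73 in the tumours. It had 2.67, 2.51, 2.55 and 3.14 in Prom1-positive and 3.14, 3.34 and 2.87 in Prom1-negative cells. Tumours 2, 4, 6 and 9 were above the normal samples and the other 5 were among them. The difference of 1.46 (SE 0.57, limma adjusted p = 0.0422) was no longer called when 1 sample was left out for 10 of the 16 samples, and had an adjusted p of 0.245 against the Prom1-negative cells alone.

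Sprr1a was bright in uterus already in normal cells. It had a lowest, median and highest signal of 7.11, 11.12 and 12.66 in the tumours, 11.86, 10.77, 9.66 and 10.44 in Prom1-positive cells, and 8.40, 8.95 and 10.47 in Prom1-negative cells. The difference of 0.64 did not pass the test (limma adjusted p = 0.499). Prr9 differed by 1.10 without passing the test (limma adjusted p = 0.128), and was called higher with uterus fitted alone (limma adjusted p = 0.0494).

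Tumours 7 and 8 were low in Csta1, Ivl, Sprr1a and Sprr1b together. They were also the lowest in the 8 stratified squamous markers, whose mean was 7.81, 8.67, 7.81, 7.27, 7.95, 8.70, 5.76, 4.32 and 8.42 in tumours 1 to 9. The mean of the 6 uterine gland markers was 4.63, 5.34, 4.38, 7.09, 5.61, 5.35, 6.68, 6.65 and 6.57 in the tumours, 6.56 to 6.80 in Prom1-positive and 6.82 to 6.87 in Prom1-negative cells. Tumours 7 and 8 were thus near the normal cells in this list too, together with tumours 4 and 9, and the other 5 lay below. The list does not single out glands. It was higher in Prom1-negative than in Prom1-positive cells, and the 5 fibroblast markers averaged 11.22 to 11.38 and 9.30 to 10.37 in these cells. It also holds Ltf, which is among the neutrophil markers as well. Of the 5 tested genes of this uterine list 2 were lower in the tumours, the progesterone receptor gene Pgr at -3.83 and the homeobox gene Hoxa11 at -2.75. The part of glands or fibroblasts in the uterine result was not tested. Without tumour 7 the differences were 4.60 for Csta1 and 4.40 for Ivl, and without tumour 8 they were 4.77 and 4.31. The 11 basal genes averaged 10.56, 10.52, 10.62, 8.24, 9.61, 10.44, 7.10, 6.48 and 8.17 in the tumours. In the comparison with normal cells 10 of these 11 were higher, with a median difference of 2.98, led by Krt14 at 6.88, Krt5 at 5.68, the hemidesmosome collagen Col17a1 at 5.43 and Trp63 at 3.75.

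Of 23 cornification enzymes and junction proteins, 11 were higher in uterine tumours and none lower, led by the desmosome protein Pkp1 at 4.60, Dmkn (dermokine) at 4.50, Ly6d at 3.49 and Lypd3 at 2.99. Of 11 suprabasal and wound keratins, 5 were higher, led by Krt6a at 5.90, Krt6b at 4.58, Krt13 at 3.50 and Krt16 at 3.03. The rest of the epidermal differentiation complex was little represented, with 2 of 24 genes higher, Sprr2d by 2.50 and Sprr2a1 by 2.20. Of 4 stefin genes, 2 were higher, Stfa2l1 by 2.88 and Stfa3 by 2.74. Hair follicle genes numbered 4 higher and 2 lower of 23, with Padi3 and S100a3 higher by 3.19 and 2.29 and Krt84 at -2.37. As shares these are close to all genes, of which 2410 of 14663 were higher and 1816 lower. Of 19 transcription factors 6 were higher and 7 lower, Tfap2a and Zfp750 at 2.78 and 2.58, and Junb and Klf4 at -3.24 and -2.91. Of 9 neutrophil markers 5 were higher. Their mean was 6.53, 9.28, 7.42, 7.69, 7.54, 8.92, 6.88, 5.41 and 7.52 in the tumours, 5.54 to 6.17 in Prom1-positive and 5.08 to 5.74 in Prom1-negative cells. Tumour 8, the lowest in Csta1, was also the lowest in these markers, and their part in the result was not tested.

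Gastric adenocarcinomas, compared with normal stomach cells, divided the 10 genes. Ivl, Sprr1a and Tchh were higher in the tumours, Krtdap, Sprr3 and Csta1 were lower, and the remaining 4 did not pass the test. The 6 calls of 10, 3 in each direction, stand against 58.1% of all genes in limma, 35% higher and 23% lower, so the share of calls is close to that of all genes. The median difference of the 10 was 0.50, against 0.11 over all genes.

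Ivl had 2.97, 3.20, 6.35, 5.81, 6.24, 7.69, 8.97, 9.25, 9.57, 10.78 and 9.22 in gastric tumours 1 to 11. It had 3.10, 2.58 and 3.56 in Prom1-positive stomach cells and 2.91, 3.23, 3.35 and 2.95 in Prom1-negative cells, where the number 2 was given to 2 samples. Tumours 1 and 2 were within the normal range and the other 9 were well above it, with a difference of 4.18 (SE 0.64, limma adjusted p = 1.75e-08). The groups lay closer together in the separate Ivl probe set, at 5.64 ± 1.88 in the tumours (SD, n = 11). It averaged 3.93 ± 0.53 in Prom1-positive (SD, n = 3) and 4.03 ± 1.47 in Prom1-negative cells (SD, n = 4). Sprr1a had 6.81, 8.50, 9.73, 9.65, 10.11, 10.67, 11.49, 12.75, 12.59, 13.05 and 10.67 in the tumours. It had 7.26, 8.76 and 8.37 in Prom1-positive and 7.18, 5.77, 7.92 and 7.50 in Prom1-negative cells. Again tumours 1 and 2 overlapped the normal samples, and Sprr1a differed by 2.93 (SE 0.60, limma adjusted p = 1.4e-05). Tchh ranged from 2.26 to 5.26 in the tumours with a median of 3.71, and had 2.27, 2.41 and 2.77 in Prom1-positive and 2.21, 3.27, 2.39 and 3.07 in Prom1-negative cells. The groups overlapped, and the difference was 1.21 (SE 0.32, limma adjusted p = 0.000775).

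Krtdap ranged from 2.26 to 3.04 in the gastric tumours with a median of 2.72. It had 5.03, 9.90 and 9.53 in Prom1-positive cells and 2.73, 5.0, 8.62 and 9.69 in Prom1-negative cells. All tumours were dim, and all normal samples but Prom1-negative sample 1 were brighter, with a difference of -4.66 (SE 0.55, limma adjusted p = 2.81e-12). Sprr3 followed the same samples, with 2.64 to 3.35 in the tumours, 3.40, 6.32 and 6.63 in Prom1-positive cells, and 3.22, 3.26, 6.04 and 6.26 in Prom1-negative cells. Its difference was -2.13 (SE 0.32, limma adjusted p = 8.43e-09). Csta1 lay between 2.20 and 2.59 in the tumours, at 2.83, 2.73 and 5.6 in Prom1-positive cells and at 2.60, 4.61, 2.69 and 6.21 in Prom1-negative cells. The ranges of Csta1 just failed to meet, and its difference was -1.54 (SE 0.51, limma adjusted p = 0.00646). It was not called against the Prom1-positive cells alone (limma adjusted p = 0.0859) or without Prom1-positive sample 3 (limma adjusted p = 0.0828). Without the 6 dim arrays, 3 of which are of stomach, the Csta1 difference was -1.0 (limma adjusted p = 0.241), while Krtdap and Sprr3 were still called at -3.35 and -1.35. Sprr1b, at -0.86, did not pass the test (limma adjusted p = 0.0693) and was called lower against the Prom1-negative cells alone, at -1.17 (limma adjusted p = 0.0418), and without Prom1-negative sample 1 or sample 3.

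The 8 stratified squamous markers, some of which are counted again in the basal and suprabasal lists, moved with Krtdap and Sprr3. Their mean was 3.31 to 4.35 in the gastric tumours, against 4.06, 6.07 and 6.64 in Prom1-positive and 3.57, 3.89, 5.85 and 7.17 in Prom1-negative cells, and 7 of the 8 were lower in the tumours. The normal samples that were bright in Krtdap and Sprr3 were those with the higher marker means. All 7 gastric gland markers were lower as well, with a mean of 3.44 to 8.41 in the tumours, 11.19 to 12.73 in Prom1-positive and 11.84 to 12.63 in Prom1-negative cells. The 5 fibroblast markers had a mean of 7.86 to 9.27 in the tumours, 3.84 to 5.01 in Prom1-positive and 3.57 to 6.24 in Prom1-negative cells. The part of squamous lining, glands or fibroblasts in these results was not tested.

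Of 11 suprabasal and wound keratins 7 were lower in gastric tumours and none higher, led by Krt6b at -3.35 and Krt13 at -2.41. Of 24 other genes of the epidermal differentiation complex 4 were lower and none higher, led by Sprr2a1 at -4.59 and Sprr2k at -2.0. Of 23 cornification enzymes and junction proteins 7 were lower and 1, the envelope plaque protein periplakin (Ppl), was higher by 2.57. Of 11 basal genes 5 were lower, with Krt5 at -2.49, and 3 were higher, with the laminin gene Lama3 at 4.57. Of 23 hair follicle genes 4 were lower, where 3379 of all 14663 genes were lower and 5135 higher. Of 19 transcription factors 9 were lower and 4 higher, with Grhl2 at -2.37 and Fosl1 at 2.66, and of 4 stefin genes 2 were higher.

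**Figure D5:**
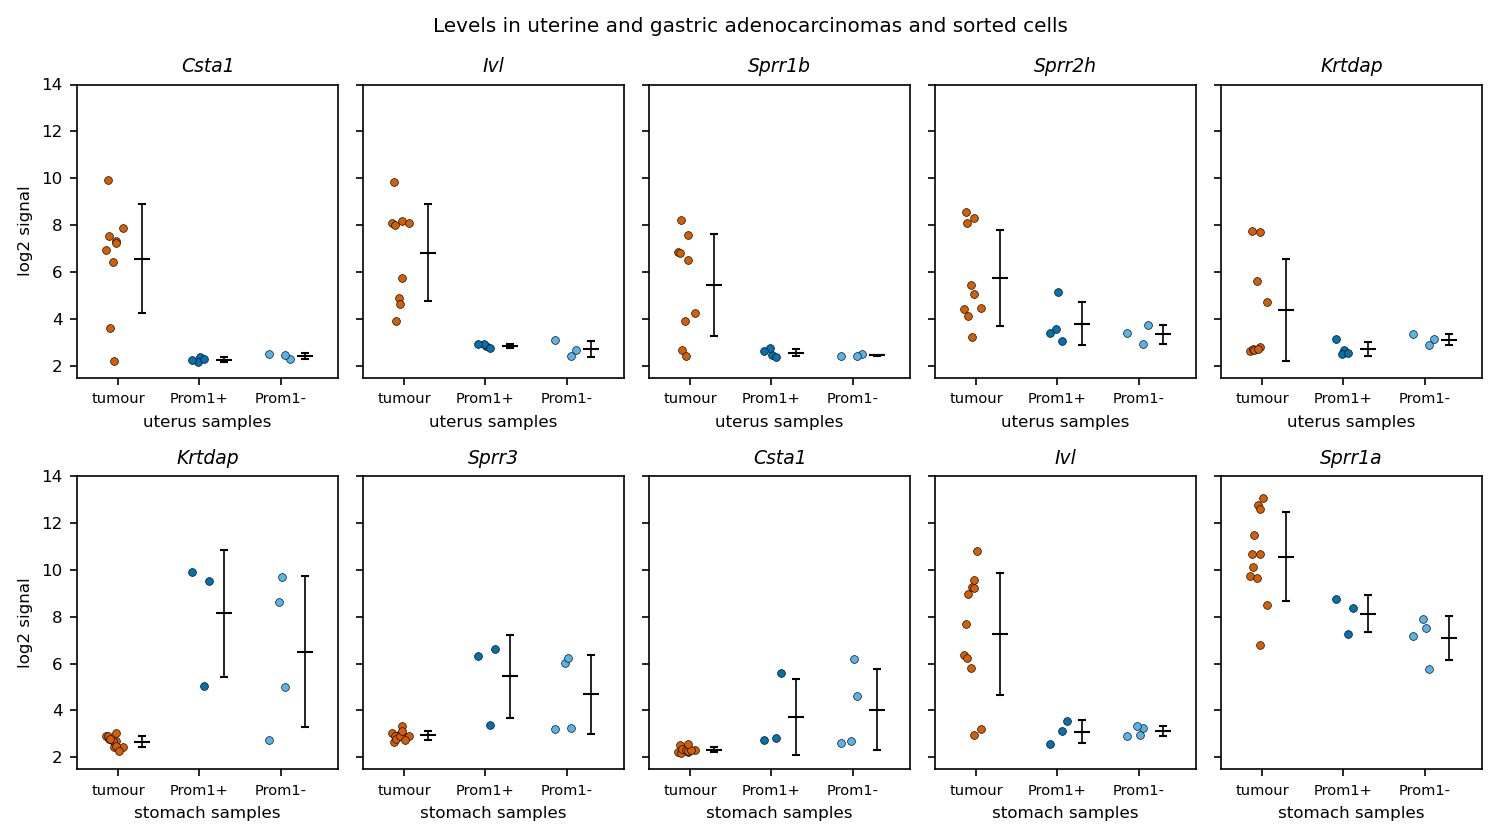
Log2 signal of 5 genes in uterine adenocarcinomas (n = 9) and sorted uterus cells (Prom1-positive n = 4, Prom1-negative n = 3; upper row) and of 5 genes in gastric adenocarcinomas (n = 11) and sorted stomach cells (Prom1-positive n = 3, Prom1-negative n = 4; lower row); points are samples, with mean and SD beside them. Normal uterus cells are uniformly low in Csta1, Ivl and Sprr1b, while normal stomach cells spread from 2.73 to 9.90 in Krtdap and the gastric tumours stay at or below 3.04.

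In lung and liver the 10 genes moved little, apart from Ivl and Sprr1a. In limma, 2 of 10 were called in bronchial papillary adenomas, both higher, against 43.1% of all genes in either direction and 23.4% higher. In hepatocellular carcinomas 1 of 10 was called, higher, against 47.2% in either direction and 29.2% higher. Ivl had a lowest, median and highest signal of 2.65, 6.32 and 8.93 in the 14 bronchial adenomas, against 2.73, 2.74 and 3.17 in Prom1-positive and 2.40 to 2.83 in Prom1-negative lung cells with a median of 2.59. In 13 of the 14 adenomas Ivl exceeded the array median, which it did in no lung sample, and the difference was 3.43 (SE 0.57, limma adjusted p = 2.82e-07). The groups lay closer together in the separate Ivl probe set, at 4.57 ± 1.11 in the adenomas (SD, n = 14). It averaged 3.18 ± 0.40 in Prom1-positive (SD, n = 3) and 3.15 ± 0.19 in Prom1-negative cells (SD, n = 7). Sprr1a had 3.21, 4.62 and 7.36 in the adenomas, 2.91, 3.30 and 3.37 in Prom1-positive cells, and 2.79 to 3.45 in Prom1-negative cells with a median of 3.13. The ranges met at their ends, and the difference was 1.73 (SE 0.53, limma adjusted p = 0.00535). Against the Prom1-positive cells alone, it was 1.70 and was not called (limma adjusted p = 0.0902).

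Sprr1a had a lowest, median and highest signal of 2.98, 5.87 and 9.07 in the 13 hepatocellular carcinomas, against 3.0 to 4.81 in Prom1-positive liver cells with a median of 4.11 and 2.94 to 4.70 in Prom1-negative cells with a median of 3.31. The tumours reached well above the normal samples but also overlapped them, and the difference was 2.17 (SE 0.51, limma adjusted p = 0.000254). None of 24 other genes of the epidermal differentiation complex was called in either organ. Of 23 cornification enzymes and junction proteins, 4 were higher in bronchial adenomas, led by Dmkn at 4.47, and in hepatocellular carcinomas 3 were higher and 1 lower, led by Ly6d at 3.94 and Ppl at 3.73. Stratified squamous markers were called in neither organ. Of 23 hair follicle genes 3 were lower in bronchial adenomas, against 2890 of all 14663 genes. Of the 8 simple glandular markers 7 were higher in each organ, with a median difference of 3.59 in bronchial adenomas and 1.72 in hepatocellular carcinomas, and their part in the results for Ivl and Sprr1a was not tested.

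The tumour difference varied between the 5 organs for 9 of the 10 genes, by a moderated F test of the interaction in limma, against 77.9% of all genes. Tchh gave an adjusted p of 4.87e-29, Prr9 7.28e-18 and Sprr2h 1.62e-15, with the prostate difference the highest of the 5 in each. The exception was Sprr1a (adjusted p = 0.0964), which was called in 4 of the 5 organs, all but uterus. It passed the threshold when gastric tumour 1 was left out (adjusted p = 0.0326). The 5 comparisons draw on separate tumour samples and separate normal samples, but share the gene filter and the estimate of the spread. Whether samples of different organs came from the same mouse is not in the labels.

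Between sorted fractions of normal tissue, the 10 genes had calls in prostate and, with all samples and no pairing, in no other tissue. Sprr1b and Tchh were too dim to pass the filter over the sorted samples, which left 8. In limma over 14081 genes, 3 of the 8 were called between Prom1-positive and Prom1-negative prostate cells, 1 higher and 2 lower, against 9.19% of all genes, 3.21% higher and 5.98% lower. Krtdap averaged 2.99 ± 0.15 in Prom1-positive (SD, n = 3) and 7.25 ± 0.36 in Prom1-negative cells (SD, n = 5), without overlap, a difference of -4.26 (SE 0.77, limma adjusted p = 9.12e-05). Ivl averaged 2.85 ± 0.48 in Prom1-positive (SD, n = 3) and 5.35 ± 1.69 in Prom1-negative cells (SD, n = 5), also without overlap, a difference of -2.50 (SE 0.43, limma adjusted p = 4.07e-05). It exceeded the array median in 4 of these 5 Prom1-negative samples and in no other sorted sample. Ivl thus passed the filter only through the group in which it was then higher. Its p-value and its place among the 3 calls are therefore no separate support. The Ivl call was lost when tumours joined the fit (limma adjusted p = 0.0844) and when prostate was fitted alone (limma adjusted p = 0.0751). With the filter at 10 arrays or with quantile normalization repeated, Ivl did not pass the filter and was not tested. The separate Ivl probe set lay closer together, at 3.71 ± 0.09 in Prom1-positive (SD, n = 3) and 4.36 ± 1.58 in Prom1-negative cells (SD, n = 5). Csta1 averaged 8.14 ± 1.31 in Prom1-positive (SD, n = 3) and 6.51 ± 1.11 in Prom1-negative cells (SD, n = 5), with overlap, and was higher by 1.64 (SE 0.55, limma adjusted p = 0.049).

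Prom1-negative prostate sample 1 stood apart, with the highest Ivl, Prr9 and Sprr1a of its group. Without it, Ivl differed by -1.78 and Krtdap by -4.33, both still called, whereas Csta1 differed by 1.18 and was not (limma adjusted p = 0.165). The call of Csta1 was also lost with any of 4 other samples left out and under 5 other settings. With samples of adjacent title codes as pairs it was kept, at 1.33 (limma adjusted p = 0.00602). Of 17 tested cornification and junction genes, 3 were lower in Prom1-positive prostate cells, with differences of -5.11 for Dmkn, -2.60 for Ly6d and -1.55 for Ppl. None of 11 basal genes, 9 suprabasal keratins, 10 other epidermal differentiation complex genes, 13 hair follicle genes or 2 stefin genes was called, and of 18 transcription factors 2 were higher and 2 lower. Of 5 fibroblast markers, 4 were lower in Prom1-positive cells, with Lum at -4.93, and their mean was 7.63, 6.47 and 5.69 in Prom1-positive samples, against 8.66, 9.61, 9.72, 9.87 and 9.86 in Prom1-negative samples. The neutrophil markers S100a8 and S100a9, which keratinocytes also make, were also lower, at -3.61 and -3.75, as 2 of 9 neutrophil markers. The part of fibroblasts and leukocytes in the prostate differences was not tested.

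None of the 8 was called in the other tissues by limma, against 3.17% of all genes in stomach, 10.9% in uterus, 1.51% in lung, 20.7% in liver and 0.199% in intestine. At an unadjusted p under 0.05 there was 1 in stomach, Krtdap at 1.65 (limma adjusted p = 0.301), 1 in uterus, Sprr1a at 1.41 (limma adjusted p = 0.183), and 1 in intestine, Lor at 0.53, with 0 in lung and 0 in liver. In stomach the calls changed with the sample left out. Without Prom1-positive sample 1, Krtdap was higher in Prom1-positive cells by 3.21 (limma adjusted p = 0.0129) and Sprr3 by 1.78 (limma adjusted p = 0.0146). The Prom1-positive samples then left, 2 and 3, are both dim arrays, with upper quartiles of 5.62 and 5.95. Their stratified squamous marker means were 6.07 and 6.64, against 4.06 in sample 1. Without Prom1-negative sample 3, Krtdap was higher by 2.70 (limma adjusted p = 0.0193). In liver, where deviations correlated above 0.1 in 3 of 3 pairs of adjacent title codes, Sprr3 differed by 0.59 without pairs (limma adjusted p = 0.32) and by 0.58 with them, and was then called (limma adjusted p = 0.0284). With these pairs 4728 of 14081 genes were called in liver, so 1 of the 8 does not stand out. Sprr3 was under the array median in every liver sample, at 3.25 to 3.63 in Prom1-positive and 2.72 to 3.04 in Prom1-negative cells. Liver Prom1-positive samples 2 and 3 are dim arrays. Ivl and Krtdap differed between tissues in their response to the sort, with interaction adjusted p of 0.00236 and 0.00171 in limma, 2 of 8 against 21.2% of all genes. For Ivl this was lost with its probe sets averaged (limma adjusted p = 0.12) and when tumours joined the fit (limma adjusted p = 0.43). Ivl had also entered the fit of the sorted samples only through the Prom1-negative prostate cells. It did not enter with the filter at 10 arrays or with quantile normalization repeated.

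Correlations among the 10 genes are given as a description, since arrays of a group share tissue and handling. Tchh and Prr9 correlated at r = 0.89 over all 117 arrays and 0.90 over the arrays outside the 6 skin carcinomas, and Sprr2h and Tchh at 0.83 and 0.86. Sprr1b and Sprr3 correlated at 0.89 over all arrays and 0.48 outside skin. Sprr3 and Krtdap correlated at 0.88 and 0.71. Sprr3 and Prr9, both in the epidermal differentiation complex, correlated at 0.14 over all arrays and -0.13 outside skin.

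The genes outside the set with the most similar patterns differed accordingly. For Tchh they were Sp6 (r = 0.92 over 117 arrays, 0.93 over those outside skin), Krt73 (0.86 and 0.88) and Cryba4 (0.82 and 0.90). For Prr9 they were Sp6 (0.89 and 0.90), Mark1 (0.85 and 0.86) and Krt73 (0.83 and 0.85). For Sprr2h they were Cnfn (0.93 and 0.91), Rptn (0.90 and 0.90) and Grhl3 (0.88 and 0.85). Sprr1b was nearest to Krt16 (0.96 and 0.81), Lypd3 (0.92 and 0.79) and Lipm (0.91 and 0.54). Sprr3 was nearest to Lgals7 (0.92 and 0.79), Krt16 (0.91 and 0.60) and Tmprss11d (0.91 and 0.53), and Krtdap to Lgals7 (0.87 and 0.73), Ankrd35 (0.83 and 0.61) and Aldh3b2 (0.82 and 0.61). Csta1 was nearest to Trp63 (0.88 and 0.76), Spink5 (0.88 and 0.79) and Krt5 (0.87 and 0.77), and Lor to Lce1f (0.90 and 0.76), Lce1a1 (0.88 and 0.71) and Elovl4 (0.88 and 0.70). Ivl was nearest to S100a14 (0.79 and 0.79), Klc3 (0.77 and 0.76) and Rin1 (0.75 and 0.75), and Sprr1a to Nfe2l3 (0.83 and 0.82), Wnt4 (0.81 and 0.78) and Fxyd3 (0.81 and 0.80). The mean of the 10 genes was most like Cers3, Grhl3 and Krt4 outside skin, at 0.85, 0.84 and 0.82.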

How the data were processed

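RNA of 117 samples was measured on 1-colour Affymetrix arrays. The deposited values are log2 signals, made with RMA and Partek 6.6 per the submitters' processing notes. Of 45141 probe sets, 28898 name 1 gene, 551 several and 15692 none in the platform annotation, and a gene was read by the brightest of its single-gene probe sets over all arrays. Genes above the array median in at least 3 arrays were kept.

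Group means were fitted with limma 3.58.1 in R 4.3.3, over the 51 sorted samples for the sort and all 117 for tumours against the mean of both sorted fractions of the organ. P-values were adjusted by Benjamini-Hochberg over all genes of a fit, with 0.05 as the threshold. The code was tested on simulated data. Sorted samples carry the number in their label, and tumours are numbered in the order of deposit.

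The 10 genes and all gene and marker lists were chosen with earlier results of these data known. Genes outside the set were named by fixed rules: up to 4 per list with the largest called difference or the largest excess in skin carcinomas, markers used to check a label, and 3 per gene with the highest correlation. Alternatives changed how probe sets were combined, the filter on dim genes, the scaling (quantile normalization again, or centring on the median), limma's prior, the samples fitted and which fraction stood for normal. Others added a replicate block, by title number or, chosen after seeing the data, by adjacent title codes, dropped the dim arrays or left out each sample in turn. Arrays give no counts, so the number of samples limits precision.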

Additional observations from a re-analysis of the deposited data

Results flagged for a closer look

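Of 46 pairs of gene and group with 4 to 10 samples, 7 held a value far from the rest of its group by Dixon's criterion, which chance meets in about 1 in 20 groups. Of these, 3 were skin carcinoma 3, the lowest in Sprr2h at 4.37, in Sprr3 at 7.93 and in Krtdap at 6.08, where the next samples were at 10.8, 10.66 and 11.49. Another 3 were prostatic adenocarcinoma 10, the lowest in Lor at 3.62, in Tchh at 7.15 and in Prr9 at 11.67, where the next were at 5.89, 8.79 and 12.69. The last was prostate Prom1-negative sample 1, the highest in Prr9 at 9.66 with the next at 5.15. Prostatic tumour 10 was also the highest of its group in Csta1, at 8.94, and without it the tumour differences were 4.04 for Lor, 7.30 for Tchh, 7.50 for Prr9 and -3.62 for Csta1, all still called by limma.

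The difference between tumour and normal cells itself differed between organs by limma's interaction test, with adjusted p of 1.45e-05 for Ivl, 0.000157 for Lor, 9.56e-08 for Sprr1b, 1.62e-15 for Sprr2h, 3.05e-09 for Sprr3, 3.94e-10 for Krtdap, 4.87e-29 for Tchh, 7.28e-18 for Prr9 and 2.49e-14 for Csta1. These 9 of the 10 genes stand against 77.9% of all genes with such a call, so a call of this kind was common. Krtdap and Csta1 were called lower in prostate and stomach tumours and higher in uterine tumours. For Krtdap the prostate difference was 0.22 against Prom1-positive cells alone (limma adjusted p = 0.876), and the uterine call was lost with 10 of the 16 samples left out in turn and in 3 other settings (limma adjusted p = 0.0655, 0.155 and 0.245). For Csta1 the stomach call was lost in 3 settings (limma adjusted p = 0.0828, 0.0859 and 0.241). The difference between Prom1-positive and Prom1-negative cells differed between tissues for Ivl (limma adjusted p = 0.00236) and Krtdap (limma adjusted p = 0.00171). These were 2 of the 8 genes tested, against 21.2% of all genes. Ivl had passed the filter on dim genes only through the Prom1-negative prostate cells.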

How the results depend on the processing

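Of the values of single genes recomputed under settings other than leaving out a sample, 371 kept their direction and call or their level, 15 lost their call, 1 reversed and 1 level moved, that of Ivl in prostatic adenocarcinomas, at 6.82 with probe sets averaged. With 1 sample left out, 1430 stayed and 16 lost their call. The reversed value was Krtdap in prostatic tumours, at 0.22 against Prom1-positive cells alone. The count of genes called between prostate fractions was 3 and fell to 1 with quantile normalization repeated, with all 117 samples in the fit, and with prostate fitted alone. The count for the interaction of sort and tissue was 2 and fell to 1 with probe sets averaged, with the filter at 10 arrays, with quantile normalization repeated and with all 117 samples. With that filter, and with quantile normalization repeated, Ivl did not pass the filter over the sorted samples. It was thus not tested there, and is not among the 15 lost calls for these settings. In bronchial adenomas the count of 2 fell to 1 against Prom1-positive cells alone. Leaving out each sample in turn gave counts of 0 to 2 in the stomach sort, 2 to 3 in the prostate sort, and in tumours 8 in prostate, 5 to 7 in stomach, 5 to 6 in uterus and 9 to 10 for the organ interaction.

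With the label number as a replicate block, the Csta1 difference between prostate fractions was 1.99 and was not called (limma adjusted p = 0.0644), and over all genes 523 were called in prostate against 1294 without the block. In 7 of 19 pairs of same-numbered samples the deviations correlated above 0.1, and the labels do not say that a number marks a shared sort. A second pairing, chosen after seeing the data, joined each Prom1-negative sample to the Prom1-positive sample of its tissue with the next code in the titles. Here the deviations correlated above 0.1 in 10 of 13 pairs, 2 of 3 in prostate, a hint from the data and not from the design. With these pairs as a replicate block, the prostate differences were 1.33 for Csta1, -1.72 for Ivl and -4.49 for Krtdap, all 3 called, with 3040 genes called over all. The count in liver was 1 against 0, with 4728 genes called over all. Intestine held no such pair. The 6 dim arrays include 3 of stomach, and signals under the array median, where most of these genes lay in normal cells, were not tested against background.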
